A study of Homo sapiens with 30 samples.

Results

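The 10 genes described here sense double-stranded RNA inside cells, pass the signal on, or limit it. They are the RNA helicases IFIH1 (MDA5) and DDX58 (RIG-I), the endosomal receptor TLR3, the mitochondrial adaptor MAVS, the 2′-5′-oligoadenylate synthetase family members OAS1, OAS2, OAS3 and OASL, the kinase EIF2AK2 (PKR) and the editing enzyme ADAR. They were chosen by symbol, with earlier results of these data known, and all 10 were listed in every table, among 24462 gene symbols. Their levels were read in 30 libraries of 3 human colorectal cancer cell lines, Caco2, HCT116 and SW480, by QuantSeq, a 3′ tag method that gives about 1 tag per transcript molecule, so a level does not scale with transcript length.

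Caco2 gave 4 groups of 3 libraries: KRT20-positive cells with a hairpin against SETDB1, KRT20-negative cells with the same hairpin, scramble-hairpin cells in differentiation medium, and scramble-hairpin cells with vehicle. Keratin 20 marks differentiated intestinal epithelium, and the differentiation medium held troglitazone, a PPARγ agonist, and 1α,25-dihydroxyvitamin D3. HCT116 and SW480 gave 3 groups of 3 each: KRT-positive and KRT-negative fractions of cells with the SETDB1 hairpin, and unsorted cells. Per the labels, cells were kept in DMEM, hairpins were delivered by retrovirus and cells were selected with puromycin. The labels do not give the medium of the SETDB1 hairpin cells, the hairpin of the unsorted cells, the keratin sorted on in HCT116 and SW480, or whether the 3 replicates came from separate cultures. The p-values therefore measure the spread between these libraries, which may be technical. Sorting and hairpin cannot be told apart in any comparison of a sorted fraction with unsorted or scramble cells.

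SETDB1 is a histone H3 lysine 9 methyltransferase that silences retroelements and other repeats. Transcripts of such repeats can pair into double-stranded RNA, and a response to RNA of the cell's own making is called viral mimicry. In that pathway IFIH1 binds long and DDX58 binds short, 5′-triphosphate-bearing double-stranded RNA, and both signal through MAVS to TBK1, IRF3 and type I and III interferon genes, while TLR3 signals from the endosome through TICAM1. OAS enzymes make 2′-5′-oligoadenylate, a second messenger. EIF2AK2 phosphorylates the initiation factor eIF2α, and ADAR edits adenosine to inosine in double-stranded RNA, which lowers recognition by IFIH1. Most of these genes are themselves induced by interferon.

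Library totals were between 5349737 and 10221854 counts, so that 3 counts, taken as the lower limit of detection, correspond to between 0.28 and 0.639 CPM. CPM here are counts scaled to the library total with TMM factors, which level the libraries of a line. SETDB1 was at 19.5 to 26.0 CPM in the 6 Caco2 libraries with its hairpin and at 28.8 to 37.9 CPM in the 6 scramble libraries, without overlap. In HCT116 it was at 2.14 to 31.2 CPM in the KRT-positive, 0 to 5.74 CPM in the KRT-negative and 16.8 to 72.4 CPM in the unsorted libraries. In SW480 it was at 0 to 12 CPM in the KRT-positive, 0.222 to 36.1 CPM in the KRT-negative and 15.0 to 35.8 CPM in the unsorted libraries, so the library labelled SW480 KRT-negative replicate 1 went against its label. SETDB1 fell against vehicle in Caco2 KRT20-positive (log2 difference -0.42, adjusted p = 0.0119) and KRT20-negative cells (-0.52, adjusted p = 0.00231) and against unsorted cells in HCT116 KRT-negative cells (-4.19, adjusted p = 0.0424). It was not called lower in HCT116 KRT-positive cells, which overlapped the unsorted ones (-1.59, adjusted p = 0.407), or in SW480 KRT-positive (-2.84, adjusted p = 0.523) and KRT-negative cells (-1.13, adjusted p = 0.938). KRT20 was at 25.9 to 37.8 CPM in Caco2 KRT20-positive and 1.03 to 1.75 CPM in KRT20-negative libraries. In the KRT-positive libraries of the other lines it was at 0, 0 and 5.82 CPM in HCT116 and 44.3 to 74.9 CPM in SW480. Replicates differed far less in Caco2 (chi-square per degree of freedom 2.21 to 16.3) than in HCT116 (37.6 to 89.5) and SW480 (41.2 to 138). In HCT116 and SW480 the libraries also fell into a class richer in AT-rich transcripts and a class richer in GC-rich ones, a grouping made from the data, and all 3 HCT116 KRT-positive libraries were of the AT class. Caco2 libraries were not classed. Spearman's correlation of library level with transcript GC content ran from -0.125 to 0.202 there, highest in KRT20-negative replicate 3. It ran from -0.232 to 0.314 in HCT116 and from -0.307 to 0.222 in SW480, where its sign set the class. Transcript GC content was 40.2% to 43.3% in DDX58, TLR3, EIF2AK2 and IFIH1, and 47.4% to 55.7% in the other members. The summed level of 18 fibroblast markers was 281 to 324 CPM in Caco2 KRT20-positive, 296 to 1090 CPM in KRT20-negative, 189 to 204 CPM in differentiation medium and 148 to 160 CPM in vehicle libraries, with the highest value in KRT20-negative replicate 3. The summed level of 14 leukocyte markers was 106 to 109 CPM in KRT20-positive, 75.8 to 80.1 CPM in KRT20-negative, 81.0 to 86.8 CPM in differentiation medium and 70.7 to 78.3 CPM in vehicle libraries. Of these 14, 2 were at 0 counts throughout the KRT20-positive, 3 the KRT20-negative, 3 the differentiation medium and 4 the vehicle libraries. The part of these markers in the results was not tested. Epithelial markers were present in all 3 lines, except that VIL1, CDX1 and CDH17 were at 0 counts in HCT116, and CDX1 and LGALS4 in SW480.

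Interferon-stimulated genes carry a short repeat of GAAA in their promoters, which the factors of the STAT and IRF families bind. Promoters of 300 bases around the transcription start were taken from RefSeq on GRCh38.p14, where 8 of the 10 genes matched, DDX58 under its current symbol RIGI. OAS2 and OASL were not matched. The motifs GAAANNGAAA and GAAANGAAA were searched on both strands. They can overlap each other, and 3.57% and 3.12% of 35116 promoters held the first and the second, 6.40% either. IFIH1, DDX58, TLR3, OAS1, OAS3 and EIF2AK2, 6 of the 8, held at least 1 match, while MAVS and ADAR held none in these windows. The stretches below are shown because IFIH1, DDX58 and OAS1 were called in at least 1 comparison against vehicle or unsorted cells, and OAS3 and EIF2AK2 in none of these. Each is written 5′ to 3′ along its gene, with the motif in capitals.
IFIH1: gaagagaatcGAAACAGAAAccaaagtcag
DDX58: ggtgcggaggGAAACGAAActagcccgagg
OAS1: cccttctgagGAAACGAAAccaacagcagt
OAS3: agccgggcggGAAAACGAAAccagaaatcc
EIF2AK2: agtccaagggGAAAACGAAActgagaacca
The IFIH1 stretch lies at chr2:162318686-162318715 on the minus strand and the DDX58 stretch at chr9:32526380-32526409 on the minus strand. The OAS1 stretch lies at chr12:112906935-112906964 and the OAS3 stretch at chr12:112938452-112938481, both on the plus strand, and the EIF2AK2 stretch at chr2:37156967-37156996 on the minus strand. A match describes the letters only: the OAS1 and DDX58 stretches shown share the shorter spacing, and those of OAS3 and EIF2AK2 hold the same 10 letters. IFIH1 and OAS3 held 3 matches each, of which 1 is shown. Another OAS3 match had the shorter spacing, with the same letters as the OAS1 and DDX58 matches.

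OAS1 was the member that changed most in Caco2. It was at 42.4, 27.8 and 32.1 CPM in KRT20-positive cells, 13.1, 12.2 and 19.6 CPM in KRT20-negative cells, 23.8, 27.1 and 21.8 CPM in scramble cells in differentiation medium and 9.93, 9.81 and 7.05 CPM in scramble cells with vehicle. Every KRT20-positive library was above every library of the other 3 groups, and every KRT20-negative library lay between the vehicle and the differentiation medium libraries. OAS1 averaged 34.1 ± 7.52 CPM in KRT20-positive, 15.0 ± 4.05 CPM in KRT20-negative, 24.2 ± 2.72 CPM in differentiation medium and 8.93 ± 1.63 CPM in vehicle cells (SD, n = 3 each). It rose in KRT20-positive cells over vehicle by 1.92 ± 0.20 on the log2 scale (SE, edgeR quasi-likelihood test, adjusted p = 8.10e-08), and this call held in every alternative run (adjusted p at most 2.04e-06). OAS1 rose with the medium alone, by 1.43 ± 0.20 (adjusted p = 2.15e-05). It was lower in KRT20-negative cells than in differentiation medium (log2 difference -0.68 ± 0.18, adjusted p = 0.00563). KRT20-positive cells were above their KRT20-negative counterparts by 1.18 ± 0.18 (adjusted p = 0.000296), where 4.08% of the 13968 genes tested in Caco2 were called (2.3% higher) and OAS1 was the 1 member called of 7 tested. Against differentiation medium the KRT20-positive rise was 0.50 ± 0.18 (adjusted p = 0.034), and this call ended without KRT20-positive replicate 1 or 3 or without differentiation medium replicate 1 or 3 (adjusted p = 0.0541 to 0.234). The rise of KRT20-negative over vehicle cells, 0.74 ± 0.21 (adjusted p = 0.00715), fell to 0.48 without KRT20-negative replicate 3, the library with the high fibroblast marker sum (adjusted p = 0.0528).

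**Figure D1:**
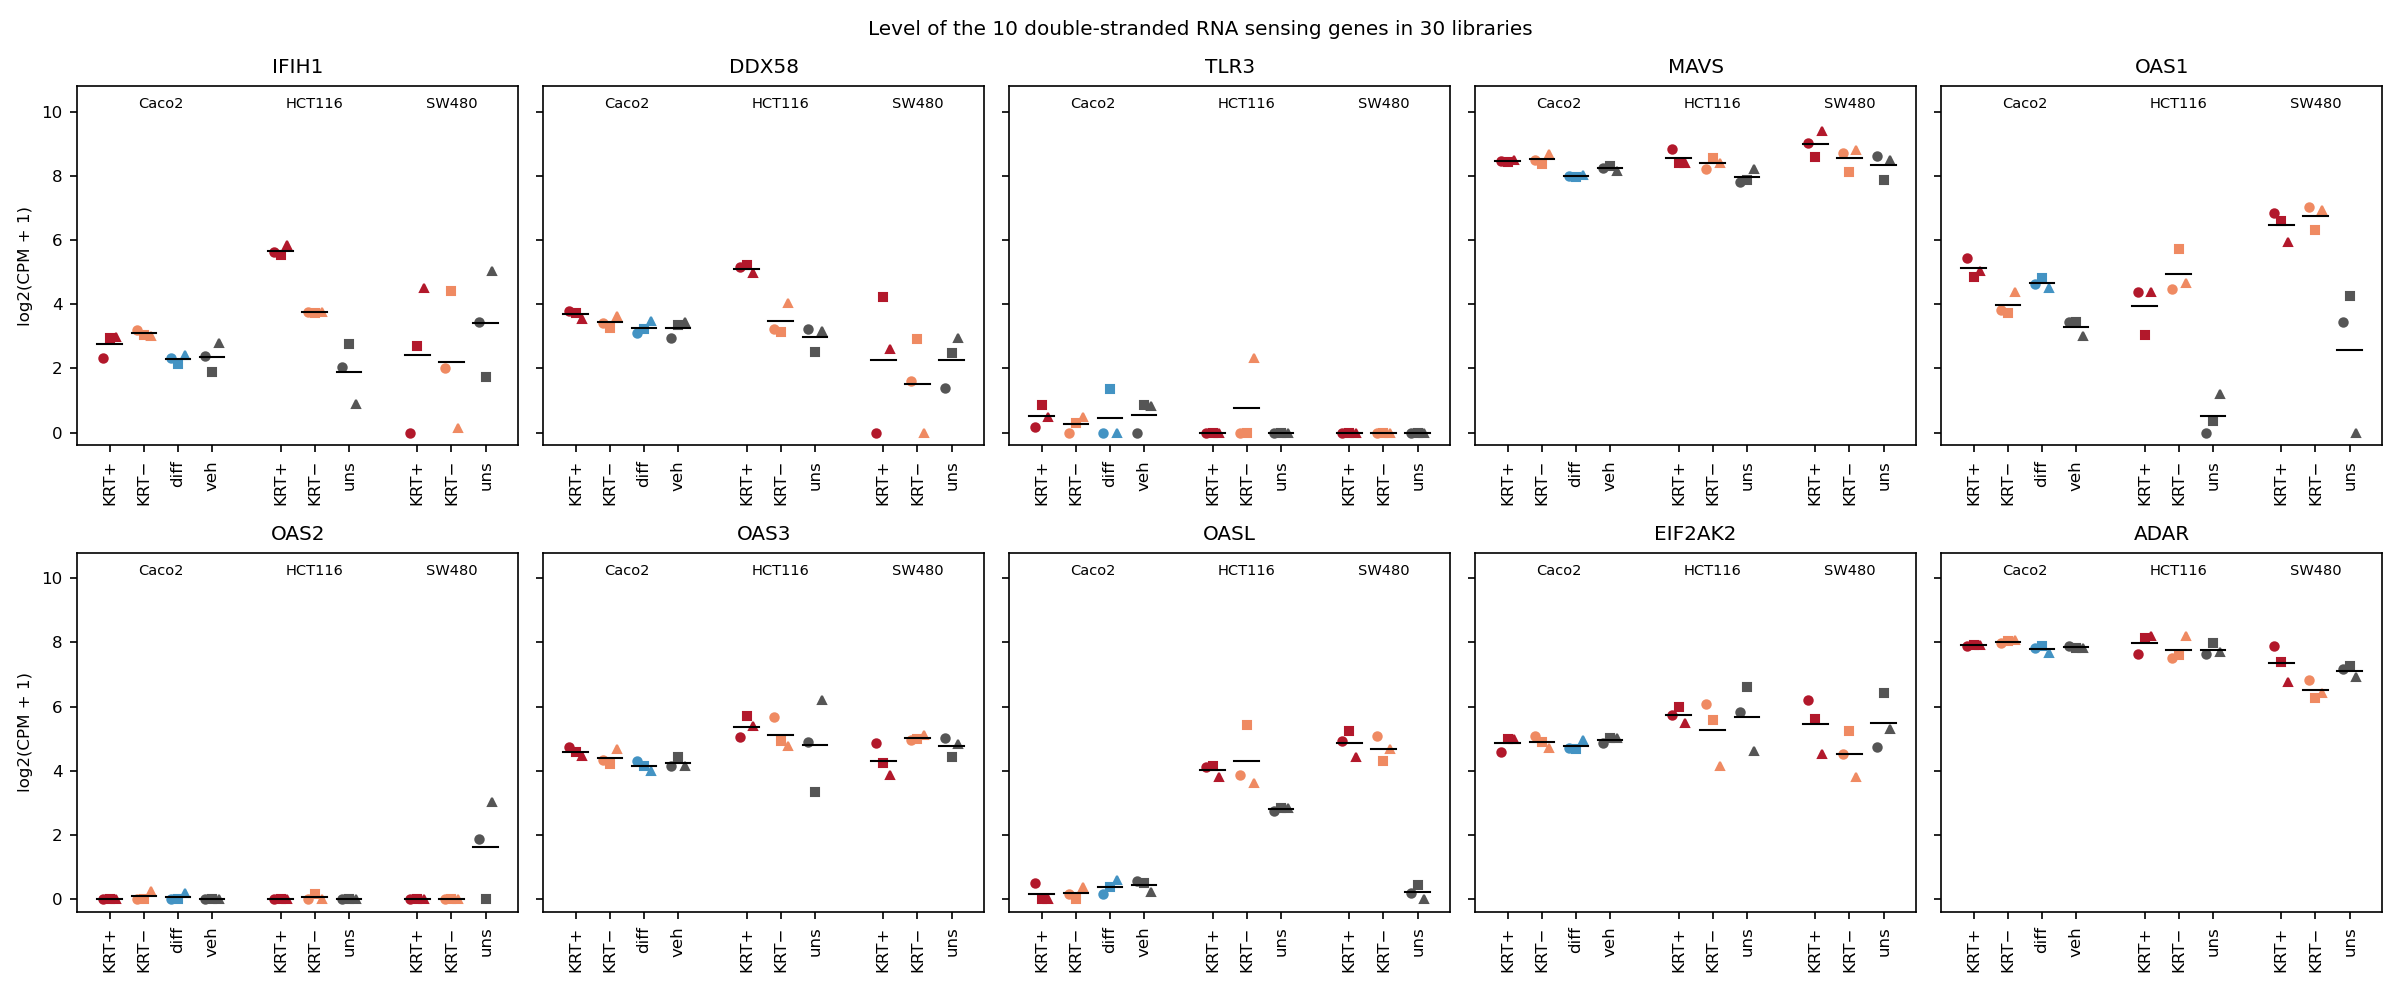
Levels of the 10 genes in every library, one panel per gene, as log2(CPM + 1) over the 10 groups of the 3 cell lines (circle, square and triangle for replicates 1, 2 and 3, black line for the mean of the 3 log values; diff, differentiation medium; veh, vehicle; uns, unsorted). MAVS and ADAR were high in every group, OAS1 stepped up between groups of each line, and TLR3 and OAS2 lay near 0 nearly throughout.

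The other oligoadenylate synthetases differed from OAS1. OAS3 was at 25.5, 23.2 and 21.1 CPM in KRT20-positive, 19.0, 17.3 and 24.3 CPM in KRT20-negative, 18.7, 16.9 and 14.9 CPM in differentiation medium and 16.8, 20.6 and 16.9 CPM in vehicle libraries of Caco2. The KRT20-positive libraries lay above both scramble groups and overlapped the KRT20-negative ones. Against vehicle the log2 difference was 0.36 ± 0.15 and missed the threshold (adjusted p = 0.0647), although it passed with only these 2 groups in the fit (adjusted p = 0.0312) and without vehicle replicate 2 (adjusted p = 0.0407). Against differentiation medium OAS3 rose by 0.46 ± 0.15 (adjusted p = 0.0212), a call that ended without KRT20-positive replicate 1 or differentiation medium replicate 2 or 3 (adjusted p = 0.0506 to 0.107). OASL, a family member without synthetase activity that binds double-stranded RNA and enhances RIG-I signalling, gave at most 4 counts in any Caco2 library, and OAS2 at most 2. Both were too low for the low-count filter of that line, as was TLR3.

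Of the sensors, IFIH1 was low in Caco2 and highest in the KRT20-negative fraction. It was at 3.97, 6.76 and 6.80 CPM in KRT20-positive, 8.20, 7.25 and 7.07 CPM in KRT20-negative, 4.0, 3.37 and 4.38 CPM in differentiation medium and 4.17, 2.69 and 5.98 CPM in vehicle libraries. All KRT20-negative libraries were above all others, whereas the KRT20-positive ones overlapped both scramble groups. IFIH1 rose in KRT20-negative cells by 0.93 ± 0.27 over differentiation medium (adjusted p = 0.0083) and by 0.82 ± 0.27 over vehicle (adjusted p = 0.0185). The second call ended without vehicle replicate 1 or 2 or KRT20-negative replicate 1 (adjusted p = 0.0541 to 0.117). KRT20-positive cells differed from vehicle by 0.46 ± 0.28 (adjusted p = 0.198) and from KRT20-negative cells by -0.36 (adjusted p = 0.531), so the 2 fractions were not separated for this gene.

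DDX58 had a different order in Caco2. It was at 12.7, 12.3 and 10.6 CPM in KRT20-positive, 9.57, 8.65 and 11.4 CPM in KRT20-negative, 7.53, 8.28 and 10.2 CPM in differentiation medium and 6.75, 9.27 and 9.81 CPM in vehicle libraries. The KRT20-positive libraries were above all scramble libraries and overlapped the KRT20-negative ones. The log2 difference from vehicle, 0.47 ± 0.19, missed the threshold (adjusted p = 0.0588) and passed it with library totals in place of TMM (adjusted p = 0.0481) or with only these 2 groups in the fit (adjusted p = 0.0405). TLR3 reached at most 10 counts, 1.53 CPM, in a Caco2 library, and the 3 libraries of a group summed to 10, 6, 10 and 11 counts in KRT20-positive, KRT20-negative, differentiation medium and vehicle cells.

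MAVS, the adaptor through which both helicases signal, was the most abundant member, and its groups differed by small, tight steps in Caco2. It was at 352, 344 and 361 CPM in KRT20-positive, 358, 329 and 412 CPM in KRT20-negative, 254, 249 and 260 CPM in differentiation medium and 305, 313 and 285 CPM in vehicle libraries. The 6 SETDB1 hairpin libraries were all above the 6 scramble ones, and the differentiation medium libraries were all below the vehicle ones. MAVS rose over differentiation medium by 0.47 ± 0.08 in KRT20-positive cells (adjusted p = 4.65e-05) and by 0.53 ± 0.08 in KRT20-negative cells (adjusted p = 9.91e-06). Over vehicle it rose by 0.23 ± 0.08 in KRT20-positive cells (adjusted p = 0.0233), a call that ended without vehicle replicate 1 or 3 or KRT20-positive replicate 1 or 3 (adjusted p = 0.0572 to 0.116), and by 0.28 ± 0.08 in KRT20-negative cells (adjusted p = 0.00574). It fell with the medium alone by 0.24 ± 0.08 on the log2 scale (adjusted p = 0.0287). That call ended when any of 5 of the 6 libraries was left out (adjusted p = 0.0641 to 0.104) and held without vehicle replicate 3.

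**Figure D2:**
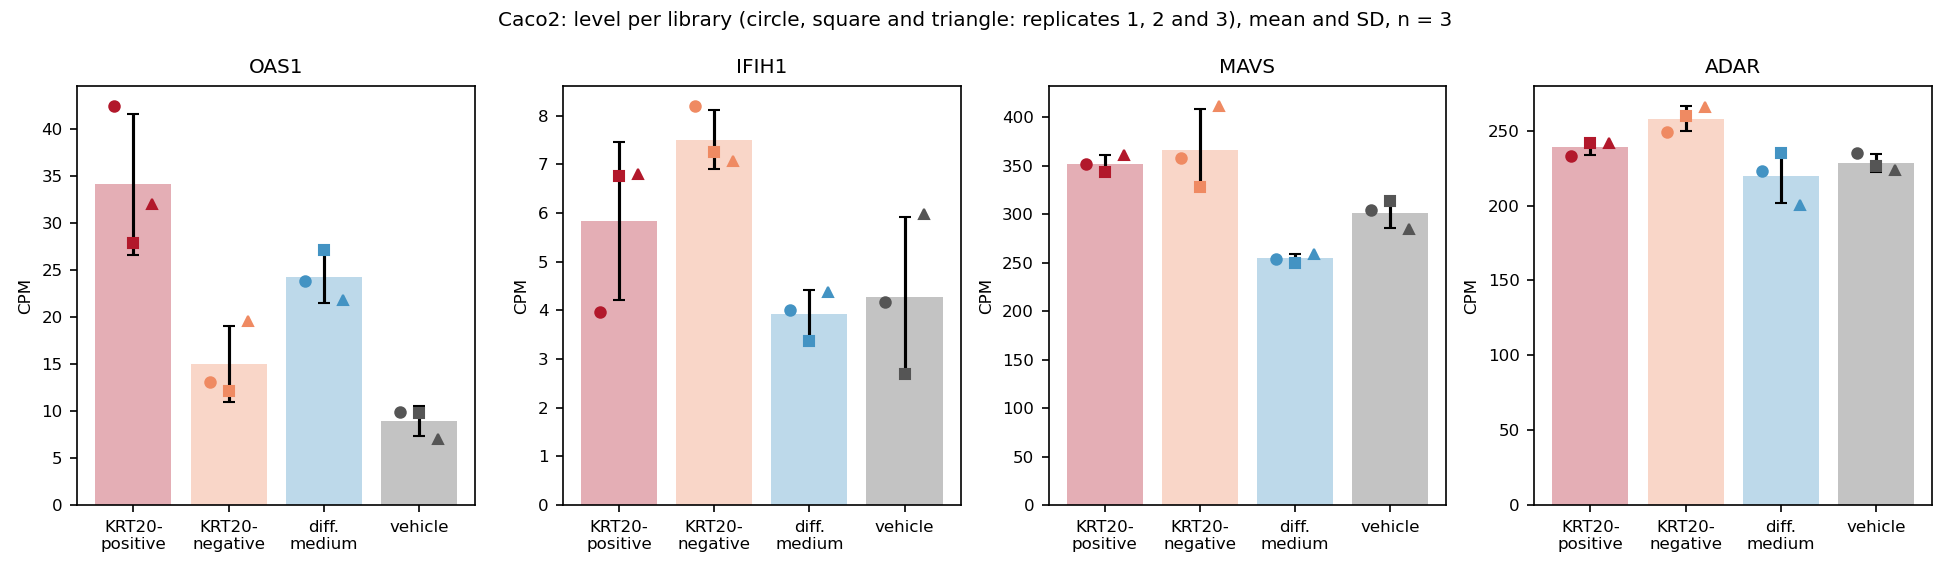
OAS1, IFIH1, MAVS and ADAR in the 4 Caco2 groups, in CPM on axes from 0 (bars are means, error bars SD, points the 3 replicates). OAS1 averaged 34.1 CPM in KRT20-positive and 8.93 CPM in vehicle cells, while ADAR averaged 239 and 228 CPM in the same groups.

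EIF2AK2 and ADAR moved little in Caco2. EIF2AK2 was at 23.1, 30.7 and 31.0 CPM in KRT20-positive, 32.6, 28.5 and 25.3 CPM in KRT20-negative, 24.8, 24.5 and 30.3 CPM in differentiation medium and 28.3, 31.2 and 31.4 CPM in vehicle libraries, and all 4 groups overlapped. Its log2 differences from vehicle were -0.10 in KRT20-positive, -0.07 in KRT20-negative and -0.19 in differentiation medium cells (adjusted p = 0.61, 0.706 and 0.36). ADAR was at 233, 242 and 242 CPM in KRT20-positive, 249, 260 and 266 CPM in KRT20-negative, 223, 235 and 200 CPM in differentiation medium and 235, 226 and 224 CPM in vehicle libraries. The KRT20-negative libraries were above all others, by 0.23 ± 0.07 over differentiation medium (adjusted p = 0.0133), a call that ended without differentiation medium replicate 3 (adjusted p = 0.112) or with only these 2 groups in the fit (adjusted p = 0.0546). Over vehicle the ADAR difference in KRT20-negative cells was 0.18 ± 0.07 (adjusted p = 0.0605).

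Counted over the 7 members tested in Caco2, 2 rose in KRT20-positive cells against vehicle (OAS1 and MAVS), where 37.7% of all genes were called and 19.3% were called higher. In KRT20-negative cells against vehicle, 3 rose (IFIH1, MAVS and OAS1), where 36.2% of all genes were called and 18.6% higher. Against differentiation medium, 3 rose in KRT20-positive cells (OAS1, OAS3 and MAVS), where 34.5% of genes were called and 18.0% higher. In KRT20-negative cells 3 rose (IFIH1, MAVS and ADAR) and 1 fell (OAS1) against differentiation medium, where 38.0% were called, 19.6% higher and 18.4% lower. With the medium alone, OAS1 rose and MAVS fell, where 20.9% were called, 10.4% higher and 10.5% lower. With 7 members, these counts do not set the members apart from other genes. The median log2 difference of the 7 members was 0.36 in KRT20-positive and 0.21 in KRT20-negative cells against vehicle, where the median of all genes was 0.01 in each. The comparisons of the 2 fractions with vehicle share the same vehicle libraries.

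In HCT116, 8 members passed the filter, and IFIH1, OAS1 and DDX58 rose in the KRT-positive fraction over unsorted cells. IFIH1 was at 48.7, 44.9 and 56.6 CPM in KRT-positive, 12.6, 12.3 and 12.4 CPM in KRT-negative and 3.08, 5.74 and 0.852 CPM in unsorted cells. The 3 groups did not overlap, and means were 50.1 ± 5.96, 12.5 ± 0.168 and 3.22 ± 2.45 CPM (SD, n = 3 each). IFIH1 rose in KRT-positive over unsorted cells by 3.93 ± 0.70 on the log2 scale (adjusted p = 0.00184), a ratio of means of 15.5. SETDB1 itself was not called lower in these KRT-positive cells. Among 13279 genes tested 9.28% were called in that comparison and 4.26% were called higher. The IFIH1 call held in every alternative run, with adjusted p from 2.55e-07 to 0.0127, also within the AT class libraries, and the log2 difference reached 4.63 without unsorted replicate 2. The intermediate level of KRT-negative cells was 1.93 ± 0.65 above unsorted cells (adjusted p = 0.108, with DESeq2 0.0491), and the step from KRT-negative to KRT-positive cells was 2.01 ± 0.64 (adjusted p = 0.199).

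DDX58 was at 34.5, 35.9 and 30.4 CPM in KRT-positive, 8.35, 7.69 and 15.4 CPM in KRT-negative and 8.44, 4.73 and 7.88 CPM in unsorted HCT116 cells. The KRT-positive libraries were above all others, and the KRT-negative and unsorted ones overlapped. DDX58 rose in KRT-positive over unsorted cells by 2.26 ± 0.68 (adjusted p = 0.048). This call was narrow: it ended when any of the 6 libraries was left out (adjusted p = 0.0806 to 0.150) and within the AT class libraries (adjusted p = 0.0796), and the log2 difference stayed between 2.04 and 2.42 in those leave-outs. TLR3 was at 0 counts in 8 of the 9 HCT116 libraries and at 38 counts, 4.02 CPM, in KRT-negative replicate 3.

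OAS1 in HCT116 was at 19.7, 7.28 and 19.9 CPM in KRT-positive, 21.4, 51.7 and 24.3 CPM in KRT-negative and 0, 0.287 and 1.28 CPM in unsorted cells. Both fractions were above all unsorted libraries, and every KRT-negative library was above every KRT-positive one, a difference that was not called (log2 difference of KRT-positive from KRT-negative cells -1.06 ± 0.87, adjusted p = 0.777). The counts behind the sums were 453 in KRT-positive and 882 in KRT-negative cells, against 8 in unsorted cells. That gave ratios of 34.0 (exact 95% counting interval 17.1 to 79.3) and 73.3 (37.0 to 170.2), intervals that cover counting error only. The edgeR test called both fractions higher than unsorted cells, KRT-positive by 4.95 ± 1.07 (adjusted p = 0.00725) and KRT-negative by 6.01 ± 1.12 (adjusted p = 0.00414). Fitted values against so few counts depend on the prior count: they became 6.58 and 7.62 without unsorted replicate 3 and 4.36 and 5.41 without unsorted replicate 1. The KRT-positive call ended with only the 2 groups in the fit (adjusted p = 0.0666).

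OASL, by contrast with Caco2, was well above detection in HCT116. It was at 16.4, 16.5 and 13.1 CPM in KRT-positive, 13.5, 41.8 and 11.2 CPM in KRT-negative and 5.68, 6.17 and 6.18 CPM in unsorted cells. Both fractions lay above all unsorted libraries, yet the differences of 1.35 ± 0.78 and 1.88 ± 0.79 did not pass the threshold (adjusted p = 0.337 and 0.216). OAS3 averaged 41.1 ± 9.35, 35.2 ± 12.7 and 36.5 ± 32.2 CPM in KRT-positive, KRT-negative and unsorted cells, EIF2AK2 52.9 ± 9.44, 43.0 ± 24.8 and 58.7 ± 36.9 CPM, and ADAR 257 ± 51.4, 222 ± 62.9 and 219 ± 30.1 CPM (SD, n = 3 each), all with overlapping libraries. MAVS was at 452, 339 and 340 CPM in KRT-positive, 294, 377 and 339 CPM in KRT-negative and 222, 235 and 294 CPM in unsorted cells. Its KRT-positive libraries were above the unsorted ones by 0.59 ± 0.22 (adjusted p = 0.117), a difference that passed the threshold with library totals (adjusted p = 0.0187), with the class as a term (adjusted p = 0.018) and within the AT class (adjusted p = 0.0433).

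Of the 8 members tested in HCT116, 3 rose in KRT-positive cells (IFIH1, OAS1 and DDX58), against 9.28% of all genes called and 4.26% called higher. In KRT-negative cells 1 rose (OAS1), against 5.26% called and 2.82% called higher. Between the 2 fractions edgeR called 0 members (background 0.55%), 2 had an unadjusted p under 0.05 and DESeq2 called 0. Of all genes called between KRT-positive and unsorted cells 45.9% were higher, and 63.8% with library totals in place of TMM factors, which shifted the median of all genes to 0.29. With library totals 4 members were called higher in that comparison, IFIH1 among them. Fibroblast marker sums were 236 to 325 CPM in KRT-positive, 162 to 217 CPM in KRT-negative and 144 to 219 CPM in unsorted HCT116 libraries, and leukocyte marker sums 23.6 to 49.1 CPM in KRT-positive, 52.4 to 66.4 CPM in KRT-negative and 8.31 to 31.1 CPM in unsorted libraries.

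**Figure D3:**
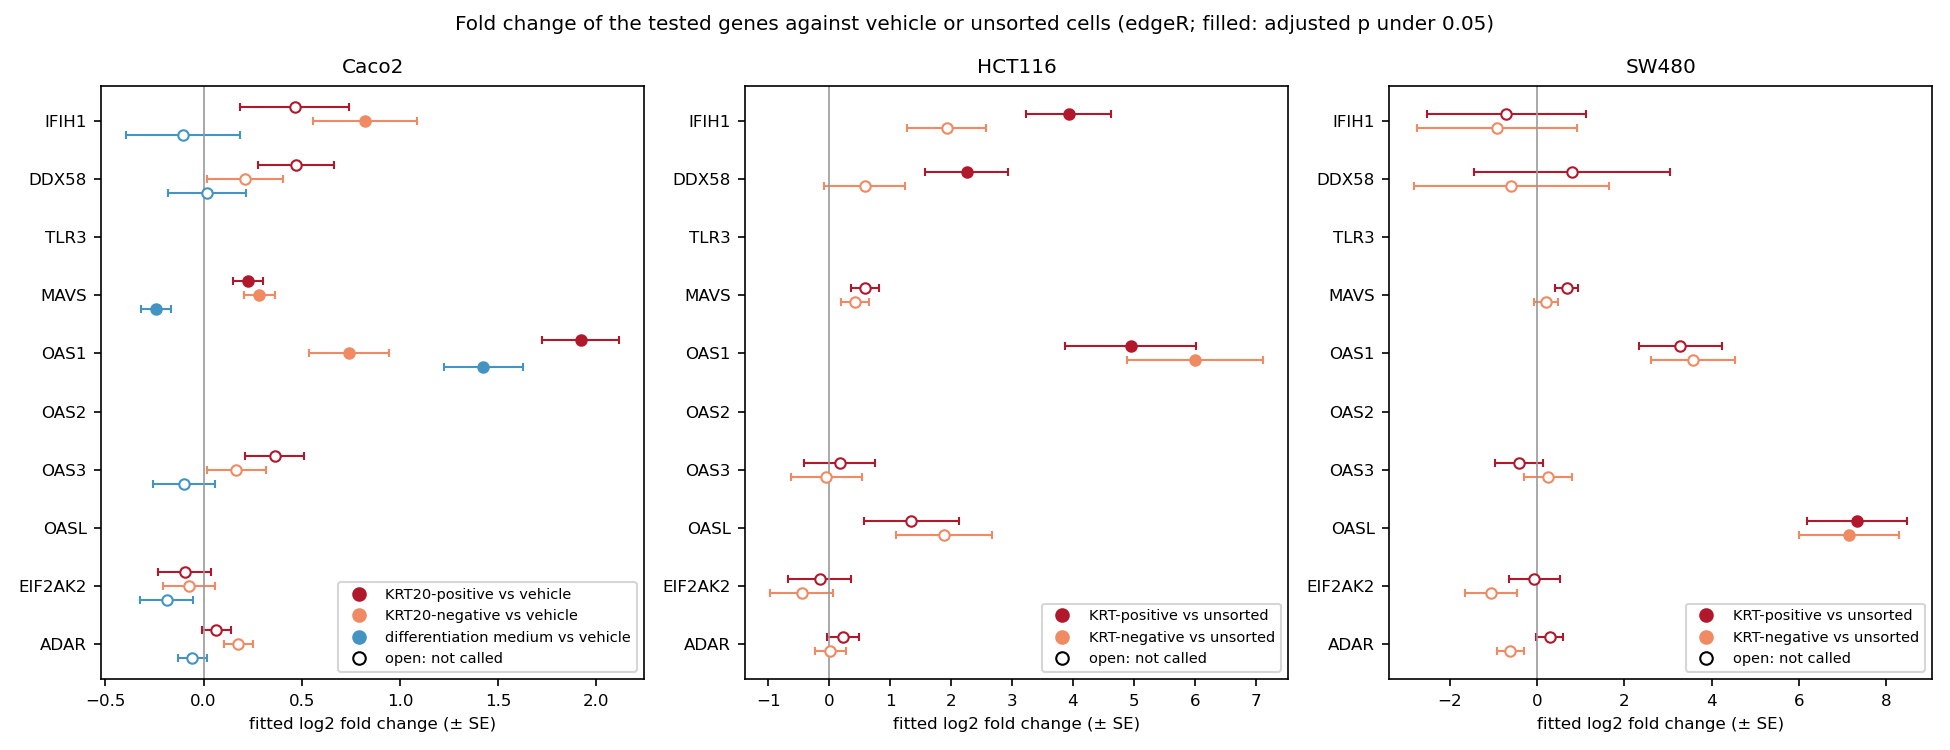
Fitted log2 differences with SE for each member against scramble vehicle (Caco2) or unsorted cells (HCT116 and SW480), filled where the edgeR test called the gene at 5% false discovery rate. OAS1 was to the right of 0 in all comparisons, IFIH1 and DDX58 had their largest differences in HCT116 KRT-positive cells, and OASL in both SW480 fractions. Members below the low-count filter are left blank.

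In SW480, OASL was the 1 member of the 8 tested that the edgeR test called, in both fractions. OASL was at 29.7, 36.3 and 20.4 CPM in KRT-positive cells, 32.7, 18.5 and 24.6 CPM in the libraries labelled KRT-negative and 0.149, 0.350 and 0 CPM in unsorted cells. The unsorted libraries held 4 OASL counts in all, against 829 in the KRT-positive and 706 in the KRT-negative libraries. The ratios were 174 (exact 95% counting interval 67.8 to 641) and 155 (60.2 to 570.2). Both were called, at 7.33 ± 1.15 in KRT-positive cells (adjusted p = 0.00294) and 7.14 ± 1.14 in KRT-negative cells (adjusted p = 0.00447). Of all 13252 genes tested, 3.47% were called in KRT-positive cells, 1.9% higher, and 2.12% in KRT-negative cells, 1.36% higher. Both OASL calls held in every alternative run (adjusted p at most 0.0393 and 0.0431). Without KRT-negative replicate 1, whose SETDB1 level went against its label, the KRT-negative difference was 6.92 (adjusted p = 0.0263). The fitted values became 8.49 and 8.31 without unsorted replicate 2 and 6.75 and 6.56 without unsorted replicate 3.

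OAS1 also lay higher in both SW480 fractions. It was at 114, 95.6 and 59.9 CPM in KRT-positive, 129, 78.6 and 122 CPM in KRT-negative and 9.85, 18 and 0 CPM in unsorted cells. Both fractions were above all unsorted libraries and overlapped each other. The differences of 3.28 ± 0.95 and 3.57 ± 0.97 missed the threshold (adjusted p = 0.0836 and 0.0858), and passed it without unsorted replicate 3, the library with 0 counts (adjusted p = 0.0119 and 0.00918). In the other alternatives run, adjusted p was from 0.0606 to 0.382. OAS1 in these sorted cells, averaging 90.0 ± 27.7 and 110 ± 27.2 CPM (SD, n = 3 each), had the highest levels of this gene in any of the 10 groups.

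The SW480 sensors varied widely between replicates. IFIH1 was at 0, 5.52 and 21.8 CPM in KRT-positive, 3.02, 20.3 and 0.104 CPM in KRT-negative and 10.0, 2.33 and 32.1 CPM in unsorted cells, so the groups overlapped widely. DDX58 was at 0, 17.6 and 5.03 CPM in KRT-positive, 2.05, 6.54 and 0 CPM in KRT-negative and 1.64, 4.55 and 6.74 CPM in unsorted cells, with the highest value of each sorted fraction in replicate 2, the AT class library. Neither helicase could be separated between groups at this spread. TLR3 was at 0 counts in all 9 SW480 libraries, which allows up to 0.448 CPM in any of them. OAS2 was detected beyond 2 counts only in SW480 unsorted replicates 1 and 3, at 18 and 65 counts (2.69 and 7.07 CPM), out of all 30 libraries.

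MAVS in SW480 was at 525, 381 and 668 CPM in KRT-positive, 417, 279 and 443 CPM in KRT-negative and 394, 232 and 359 CPM in unsorted cells. Replicate 2, the AT class library, was lowest in every group, and the groups overlapped. The difference of KRT-positive from unsorted cells was 0.68 ± 0.27 (adjusted p = 0.215), and it passed the threshold with the class as a term (adjusted p = 0.0156). ADAR was at 235, 166 and 108 CPM in KRT-positive, 113, 75.4 and 84.4 CPM in KRT-negative and 143, 154 and 120 CPM in unsorted cells. The KRT-negative libraries were all below the unsorted ones, by a log2 difference of -0.61 ± 0.31 (adjusted p = 0.445). EIF2AK2 averaged 47.6 ± 25.4, 23.9 ± 11.9 and 49.6 ± 31.3 CPM in KRT-positive, KRT-negative and unsorted cells, and OAS3 19.7 ± 7.35, 31.7 ± 1.91 and 26.4 ± 5.48 CPM (SD, n = 3 each). Between the 2 fractions edgeR called 0 members (background 0.445%), 1 had an unadjusted p under 0.05 and DESeq2 called 0. Fibroblast marker sums were 171 to 217 CPM in KRT-positive, 339 to 371 CPM in KRT-negative and 152 to 296 CPM in unsorted SW480 libraries.

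Whether the lines differed was tested directly. The step from KRT-negative to KRT-positive cells differed between Caco2 and HCT116 for 0 members by edgeR (background 0.502%), with 0 at an unadjusted p under 0.05 and 0 by DESeq2. For IFIH1 that difference was -2.39 ± 1.68 (adjusted p = 0.79), and it passed the threshold with only the groups compared in the fit (adjusted p = 0.0319). Between Caco2 and SW480 it was 0 members by edgeR (background 1.02%), 1 at an unadjusted p under 0.05, and 1 by DESeq2, ADAR. Tests of the difference between HCT116 and SW480 were added after the data had been seen. The rise of OASL in KRT-positive over unsorted cells was smaller in HCT116 than in SW480 by 5.96 ± 1.35 on the log2 scale (value -5.96, adjusted p = 0.0323, background 1.08%). Leaving out any of 9 single libraries ended this call (adjusted p = 0.0506 to 0.0946). In KRT-negative over unsorted cells the OASL difference between HCT116 and SW480 was -5.28 ± 1.34 and missed the threshold (adjusted p = 0.0587, background 1.03%), and DESeq2 called it (adjusted p = 0.000369). The IFIH1 rise in KRT-positive over unsorted cells was larger in HCT116 by 4.65 ± 2.04 and did not pass (adjusted p = 0.341), so the HCT116 rise of IFIH1 was not shown to differ from SW480.

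Among the groups without a SETDB1 hairpin label, the lines differed most in OAS1 and OASL. OAS1 averaged 8.93 ± 1.63 CPM in Caco2 vehicle, 0.522 ± 0.670 CPM in HCT116 unsorted and 9.27 ± 9.00 CPM in SW480 unsorted cells, and OASL 0.349 ± 0.175, 6.01 ± 0.283 and 0.166 ± 0.176 CPM (SD, n = 3 each). Caco2 exceeded HCT116 in OAS1 by 4.35 ± 1.01 (adjusted p = 0.00165) and was below it in OASL, by a difference of -3.88 ± 1.01 (adjusted p = 0.00442). These were 2 of 8 members, where 32.0% of 16150 genes were called. HCT116 differed from SW480 by -4.34 ± 1.01 in OAS1 (adjusted p = 0.00275) and by 4.97 ± 1.08 in OASL (adjusted p = 0.00157, background 22.0%). With only the groups compared in the fit, OASL was not called (adjusted p = 0.107) and OAS1 was below the low-count filter. ADAR was higher in Caco2 vehicle than in SW480 unsorted cells by 0.78 ± 0.22 (adjusted p = 0.00868, background 33.0%), a call that ended without SW480 unsorted replicate 3 (adjusted p = 0.0524). Line, medium and handling cannot be told apart in these comparisons, and the lines were levelled in 1 fit over all 30 libraries.

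Summed over the 10 members, MAVS and ADAR set the total. The sum was 687 to 705 CPM in KRT20-positive, 663 to 766 CPM in KRT20-negative, 542 to 567 CPM in differentiation medium and 581 to 614 CPM in vehicle libraries of Caco2, with both SETDB1 hairpin fractions above both scramble groups. It was 836 to 853 CPM in KRT-positive, 645 to 759 CPM in KRT-negative and 522 to 611 CPM in unsorted HCT116 libraries, with no overlap between these groups. In SW480 it was 768 to 1005 CPM in KRT-positive, 546 to 749 CPM in KRT-negative and 516 to 618 CPM in unsorted libraries, where the 2 lower groups overlapped. In bulk samples such as these, fewer cells with a transcript and fewer transcripts per cell cannot be told apart.

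The genes around the members were read from 5 lists, also chosen with earlier results of these data known. Of 15 tested genes of RIG-I-like receptor and TLR3 signalling, 5 rose and 0 fell in Caco2 KRT20-positive cells against vehicle, and 4 rose and 0 fell in KRT20-negative cells. CYLD, a deubiquitinase that restrains RIG-I, averaged 21.1 ± 2.82 CPM in KRT20-positive and 11.4 ± 0.843 CPM in vehicle cells (log2 difference 0.89, adjusted p = 0.000129). UNC93B1, which carries TLR3 to the endosome, averaged 15.9 ± 0.771 and 9.26 ± 1.44 CPM in the same groups (0.79, adjusted p = 0.000497), and the TLR3 adaptor TICAM1 30.8 ± 3.56 and 22.4 ± 0.630 CPM (0.46, adjusted p = 0.00879). In HCT116 KRT-positive cells against unsorted cells, 1 of 17 rose and 1 fell, 11.8% of the list against 9.28% of all genes. Against vehicle the called share of this list in Caco2 was 33.3% in KRT20-positive cells (37.7% of all genes, 19.3% higher). It was 26.7% in KRT20-negative cells (36.2%, 18.6% higher) and 6.67% in differentiation medium (20.9%, 10.4% higher). Against differentiation medium it was 20% in KRT20-positive cells (34.5% of all genes, 18.0% higher) and 13.3% in KRT20-negative cells (38.0%, 19.6% higher). Every gene of the list called in these Caco2 comparisons rose.

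Among 10 effectors and regulators of OAS and PKR, 2 rose and 2 fell in Caco2 KRT20-positive cells against vehicle, and 1 rose and 3 fell in KRT20-negative cells, so that 4 of 10 were called in each, near the 37.7% and 36.2% of all genes. ABCE1, a ribosome recycling factor, averaged 81.1 ± 2.45 CPM in KRT20-positive, 86.5 ± 7.24 CPM in KRT20-negative and 119 ± 6.93 CPM in vehicle cells. It fell in both fractions with the SETDB1 hairpin (log2 differences -0.55 in KRT20-positive and -0.45 in KRT20-negative cells, adjusted p = 1.54e-05 and 0.000145).

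The interferon genes themselves were nearly silent. IFNB1, IFNA1 and IFNK had 0 counts in all 30 libraries, which for each library allows at most the 3 counts taken as the limit. IFNL1 was found in 1 library, HCT116 KRT-positive replicate 2, at 48 counts (4.48 CPM), and IFNE passed 3 counts in 6 libraries, at most 72 counts in that same one. Of 11 receptor and signalling genes tested in Caco2, 3 rose and 1 fell in KRT20-positive cells against vehicle, near the 37.7% of all genes called. The lambda receptor chains IFNLR1 (13.7 ± 0.578 and 7.95 ± 1.89 CPM, adjusted p = 0.00184) and IL10RB (73.1 ± 3.06 and 48.2 ± 2.45 CPM, adjusted p = 1.75e-05) rose, and the type I receptor chain IFNAR2 fell (14.9 ± 3.26 and 21.5 ± 1.70 CPM, adjusted p = 0.0126). IL10RB also rose in HCT116 KRT-positive cells (140 ± 39.1 and 29.3 ± 11.3 CPM in unsorted cells, adjusted p = 0.00116) and in SW480 KRT-positive cells (123 ± 31.5 and 40.9 ± 18.1 CPM in unsorted cells, adjusted p = 0.0377).

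The longest list held 36 other interferon-stimulated genes. Of the 20 tested in Caco2, 13 rose and 0 fell in KRT20-positive cells against vehicle, with a median log2 difference of 0.94, where 37.7% of all genes were called and 19.3% higher. In KRT20-negative cells 11 rose and 0 fell (36.2% of all genes called, 18.6% higher), with a median of 0.54, and 8 rose without KRT20-negative replicate 3. In differentiation medium 5 rose and 1 fell (20.9% of all genes called), with a median of 0.49, and 3 rose without differentiation medium replicate 2. Against vehicle the median of all genes was 0.01 in both fractions and -0.0049 in differentiation medium. Against differentiation medium 10 rose and 0 fell in KRT20-positive cells (34.5% of all genes called, 18.0% higher), with a median of 0.39, and 6 to 8 rose with a library left out. In KRT20-negative cells 6 rose and 1 fell against that medium, with a median of 0.16. That was 35% of the list, near the 38.0% of all genes called. Between the 2 fractions 1 rose and 0 fell (4.08% of all genes called). PSMB8, an immunoproteasome subunit, averaged 29.5 ± 2.47 CPM in KRT20-positive, 15.9 ± 3.10 CPM in KRT20-negative and 10.7 ± 1.59 CPM in vehicle cells, and HERC5, the ligase of ISG15, 21.9 ± 2.92, 17.1 ± 2.35 and 9.53 ± 0.164 CPM. In HCT116, 8 of 27 rose and 0 fell in KRT-positive cells (9.28% of all genes called, 4.26% higher), and 5 rose without KRT-positive replicate 2 or 3 or unsorted replicate 1. In KRT-negative cells 3 rose and 0 fell (5.26% of all genes called), and leaving out KRT-negative replicate 3 left 1 higher and 1 lower. ISG15, named after its values were seen, averaged 531 ± 29.7 CPM in KRT-positive and 130 ± 46.9 CPM in unsorted HCT116 cells (adjusted p = 0.000232). In SW480, where OASL and OAS1 lay high in both fractions, edgeR called 0 of 27 in either fraction (5 in KRT-positive and 2 in KRT-negative cells had an unadjusted p under 0.05), and DESeq2 called 1 higher and 1 lower in KRT-positive and 0 higher and 1 lower in KRT-negative cells. The medians were -0.34 in KRT-positive and -0.19 in KRT-negative cells.

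**Figure D4:**
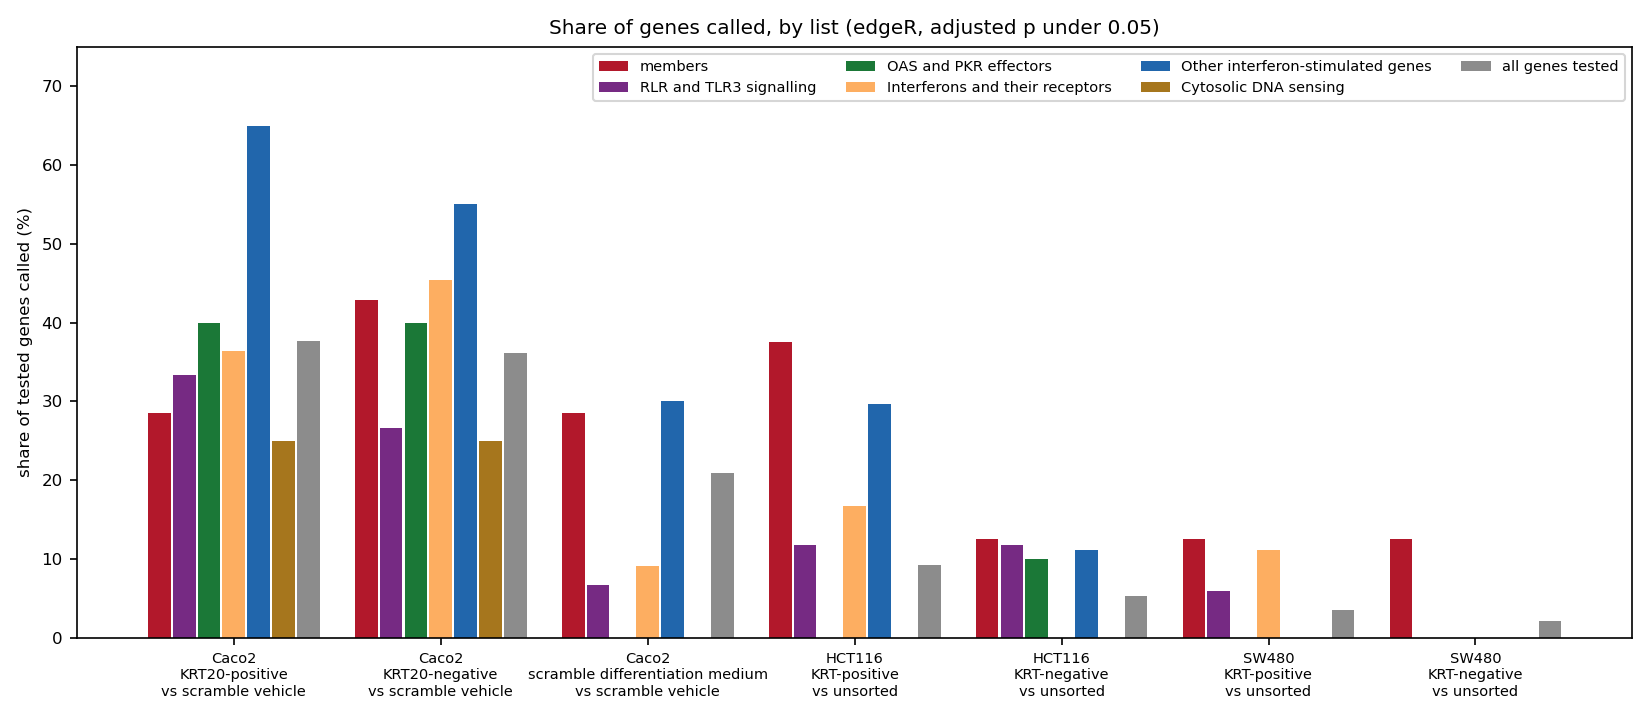
Share of tested genes called by edgeR at 5% false discovery rate in each comparison, for the 10 members and the pathway lists. All genes are in grey. In Caco2 KRT20-positive cells 2 of 7 members stand against 37.7% of genes, and in HCT116 KRT-positive cells 3 of 8 members stand against 9.28% of genes.

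The cytosolic DNA sensing list had 4 tested genes in Caco2, of which edgeR called only IFI16 in either fraction against vehicle. IFI16 averaged 3.67 ± 1.19 CPM in KRT20-positive, 3.60 ± 2.14 CPM in KRT20-negative and 0.451 ± 0.0445 CPM in vehicle cells (adjusted p = 7.01e-05 and 7.43e-05). The vehicle level lay near the 3 counts taken as the limit, 0.368 to 0.460 CPM in those libraries. The called share was 25% in each fraction, against 37.7% and 36.2% of all genes. In each fraction 3 of the 4 had an unadjusted p under 0.05, and the list medians were -0.34 and -0.35. Genes whose level ran most like each member's over the 12 Caco2 libraries were found by Pearson's r of log2(CPM + 1) among 11019 genes, as a description over libraries that share groups. MAVS ran closest to CTSA (r = 0.980), PLTP (0.977) and MLXIPL (0.968), and OAS1 to AGPAT2 (0.937), S100A9 (0.933) and SGK2 (0.926). IFIH1 ran closest to MR1 (0.95) and ADAR to CIRBP (0.918). CTSA and PLTP averaged highest in KRT20-negative cells, at 592 and 583 CPM, and lowest in differentiation medium, at 297 and 290 CPM, the order that MAVS had. They were also near each other in KRT20-positive cells, at 548 and 536 CPM, and in vehicle cells, at 436 and 432 CPM. Whether CTSA and PLTP share tags was not tested. AGPAT2 averaged 119 CPM in KRT20-positive, 62.6 CPM in KRT20-negative, 112 CPM in differentiation medium and 41.6 CPM in vehicle cells, the order of OAS1.

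The members' places in the genome bear on how their tags could be assigned. OAS1, OAS3 and OAS2 lie side by side on chromosome 12 of GRCh38 (112906777 to 112933222, 112938352 to 112973249 and 112978395 to 113011723, all on the plus strand in GENCODE 29), and OASL lies apart on the minus strand (121019111 to 121039242). The 3 neighbours differed in level: OAS1 and OAS3 were detected in all lines, and OAS2 was at or near 0 in all but 2 libraries. OAS1, OAS2 and OAS3 overlap the annotated antisense gene AC004551.1, and EIF2AK2 overlaps GPATCH11 on the other strand. The strand setting of the counting is not given in the sources used here, so tags of such partners could not be separated from those of the members.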

How the data were processed

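The authors deposited raw counts of QuantSeq 3′ tags per gene symbol, in a separate table for each of the 30 libraries. The submitters' processing notes name Bowtie2, edgeR and the build hg19, and the counting, strand setting and annotation are not given in the sources used here. Each table had 25737 lines, and 1561 lines of 286 repeated symbols were summed, which left 24462 symbols. Levels are CPM with TMM factors per line.

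Genes were tested with edgeR 4.0.16 in R 4.3.3 (filterByExpr, TMM, robust quasi-likelihood F test), in 1 fit per line over 13968 genes in Caco2, 13279 in HCT116 and 13252 in SW480. Comparisons between lines used a fit of all 30 libraries (16150 genes) or, added after seeing the data, of the HCT116 and SW480 libraries (14851 genes). Calls were made at a false discovery rate of 5% (Benjamini-Hochberg over all genes tested), and the SE is the log2 difference divided by the root of F. Fits were checked on simulated data. Alternatives were DESeq2 1.42.0, RLE factors or plain library totals for scaling, all genes with any count, a replicate block, a fit of only the groups compared, a term for the AT or GC class, the libraries of 1 class alone, and leaving out each library.

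The members and lists were chosen with earlier results of these data known. All members are named, with SETDB1 and KRT20 as label checks. Also named are up to 4 genes per list with the smallest adjusted p in a Caco2 comparison. The same holds for the 3 genes whose pattern was most like each member's, among genes of at least 5 CPM over the 12 Caco2 libraries. 1 list gene is not reported here, and other genes named were chosen after their values were seen. Tags are not corrected for amplification, so counting intervals and limits cover counting error only.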

Additional observations from a re-analysis of the deposited data

Results flagged for a closer look

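A test of the difference between 2 lines, added after the data had been seen, passed for OASL. The log2 rise of OASL in KRT-positive over unsorted cells was lower in HCT116 than in SW480, with a difference of -5.96 ± 1.35 (SE, edgeR, adjusted p = 0.0323). OASL averaged 15.3 CPM in KRT-positive and 6.01 CPM in unsorted HCT116 cells, and 28.8 CPM in KRT-positive and 0.166 CPM in unsorted SW480 cells. DESeq2 called the difference too (adjusted p = 2.83e-05). The edgeR call was lost when any of 9 of the 12 libraries was left out (adjusted p = 0.0506 to 0.0946). Leaving out single libraries moved the difference between -7.10, without SW480 unsorted replicate 2, and -5.38, without SW480 unsorted replicate 3. Since SW480 unsorted cells held 4 OASL counts in all, the size of the difference depends on the prior count of the fit.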

How the results depend on the processing

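Of the counts of members called, 107 stayed within 1.5 times of the reported count under alternatives other than leaving out a library and 10 did not, against 114 and 24 for left-out libraries. With only the 2 groups in the fit, the count for Caco2 KRT20-positive against vehicle was 4. HCT116 KRT-negative against unsorted gave 2 members with DESeq2, and 0 within the AT class, where only 1 KRT-negative library remained, assumed to vary like the other groups, and OAS1 differed by 7.03 (adjusted p = 0.0503). SW480 KRT-positive against unsorted gave 2 with the class as a term. Caco2 vehicle against SW480 unsorted gave 2 without the low-count filter, and HCT116 unsorted against SW480 unsorted gave 0 with only the groups compared. The difference between fractions gave 1 for Caco2 minus HCT116 with only the groups compared and 1 for Caco2 minus SW480 with DESeq2, and that of KRT-negative over unsorted for HCT116 minus SW480 gave 1 with DESeq2. With a library left out, counts ran from 1 to 2 for Caco2 medium against vehicle, 1 to 3 for KRT20-positive against vehicle and 1 to 2 for either SW480 fraction against unsorted cells. They ran from 0 to 2 for Caco2 vehicle against SW480 unsorted, 2 to 4 for HCT116 unsorted against SW480 unsorted, 0 to 1 for the difference between fractions in Caco2 minus SW480 and 0 to 1 for the KRT-positive difference of HCT116 minus SW480. Of the members' log2 differences, 2 turned direction: OAS1 between HCT116 KRT-positive and KRT-negative cells (0.019 with the class as a term) and DDX58 between SW480 KRT-positive and KRT-negative cells (-0.19 to 2.86 over left-out libraries, -0.19 without KRT-positive replicate 2). The cause was not tested. Other interferon-stimulated genes called higher in Caco2 KRT20-negative cells against vehicle numbered 8 to 18 over the alternatives. Library totals in place of TMM moved the share of calls that were higher in HCT116 KRT-positive against KRT-negative cells to 49.3%, against 30.1%, and in SW480 to 63.5%, against 50.8%. The replicate numbers name libraries and do not pair them by any label. Deviations of same-numbered libraries correlated at 0.0473 to 0.339 within Caco2, while HCT116 gave -0.105 to 0.279 and SW480 gave 0.0322 to 0.327, and 12 of 12, 3 of 9 and 5 of 9 libraries were closest to their own number in Caco2, HCT116 and SW480, a hint from the data and not the design. With the replicate number as a block, SW480 KRT-positive against unsorted gave 2 members (MAVS added, adjusted p = 0.0226) and 793 genes against 460. DDX58 was not called in HCT116 KRT-positive cells (adjusted p = 0.0733), and ADAR in Caco2 KRT20-negative (adjusted p = 0.0315) and DDX58 in KRT20-positive cells against vehicle (adjusted p = 0.0475) were. Depth limits TLR3, OAS2 and, in Caco2, OASL, which lay near the 3 counts taken as the limit.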
